A study of Drosophila melanogaster with 4 samples.

Results

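The gap and head gap genes are the first tier of zygotic segmentation genes in the fly. They are transcription factors expressed in broad domains along the anterior-posterior axis, set up by maternal gradients of Bicoid and Nanos and by the terminal Torso signal, and they position the stripes of the pair-rule genes. Most are silent until the embryo's own genome is switched on, but hunchback (hb) and caudal (cad) mRNAs are also loaded into the egg by the mother. After the blastoderm several of them are used again, for example hb and Kruppel (Kr) in neural stem cells.

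Described here are 10 genes of the 14373 listed in the annotated transcript tables: hb and cad as maternally supplied genes, and Kr, giant (gt), knirps (kni), knirps-like (knrl), tailless (tll), huckebein (hkb), Dichaete (D) and buttonhead (btd) as zygotic ones. They were chosen by name as gap and head gap genes, and all 10 were found. RNA came from whole Drosophila melanogaster embryos of strain w118 at 4–5 h after egg laying (2 libraries) and at 0–1 h (2 libraries), with no genetic change or treatment given in the labels for either group. Each library is Nanopore direct RNA sequencing of total RNA, a method that passes the RNA strands themselves through the pore. The labels leave unsaid if a stage's replicates are separate egg collections, so the p-values measure the spread between these libraries, which may be technical. No library covers ages between 1 and 4 h, the interval that includes the blastoderm in which the gap domains form.

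Totals were 883108 and 429525 reads in the 4–5 h libraries, against 573849 and 557433 at 0–1 h. Marker genes followed the labels: 9 mRNAs of the egg, such as deadhead and nanos, had 156 and 68 reads at 4–5 h against 7822 and 7446 at 0–1 h. Reads on 8 gastrula genes such as engrailed and twist numbered 310 and 158 at 4–5 h against 5 and 6 at 0–1 h. The 9 yolk protein and chorion genes of the mother had 3 and 3 reads at 4–5 h against 0 and 0 at 0–1 h. Reads on 10 late muscle and cuticle genes were 20 and 41 at 4–5 h and 2 and 0 at 0–1 h. The smaller 4–5 h library thus held more of the late reads, with Act57B at 7 and 22, and the reason was not tested. Levels below are CPM, a gene's reads per 1e6 library reads after TMM scaling, and log2 changes are 4–5 h over 0–1 h from edgeR's quasi-likelihood fit over 6042 genes, with Benjamini-Hochberg adjusted p under 0.05 as the call. In whole embryos, fewer cells carrying an mRNA and less mRNA per cell cannot be told apart. For hb and cad, gene totals do not separate mRNA left from the mother from mRNA made by the embryo. Their changes are therefore net values.

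The makeup of the gap gene reads changed between the stages. The 10 genes together had 317 and 196 reads at 4–5 h, against 263 and 254 at 0–1 h. Of these, the 8 zygotic genes took 88.0% (95% Wilson interval 84.0–91.1) and 87.8% (82.4–91.6) at 4–5 h. At 0–1 h they took 4.94% (2.91–8.27) and 6.69% (4.22–10.5), and the rest belonged to hb and cad. These intervals cover counting error only. As a share of library reads, the 10 genes took 0.0359% and 0.0456% at 4–5 h, against 0.0459% and 0.0456% at 0–1 h. TMM-scaled library sizes were 544787 and 300162 at 4–5 h and 870145 and 819730 at 0–1 h. After this scaling a read weighs more at 4–5 h, so the unscaled shares do not measure a change in pool size.

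**Figure D1:**
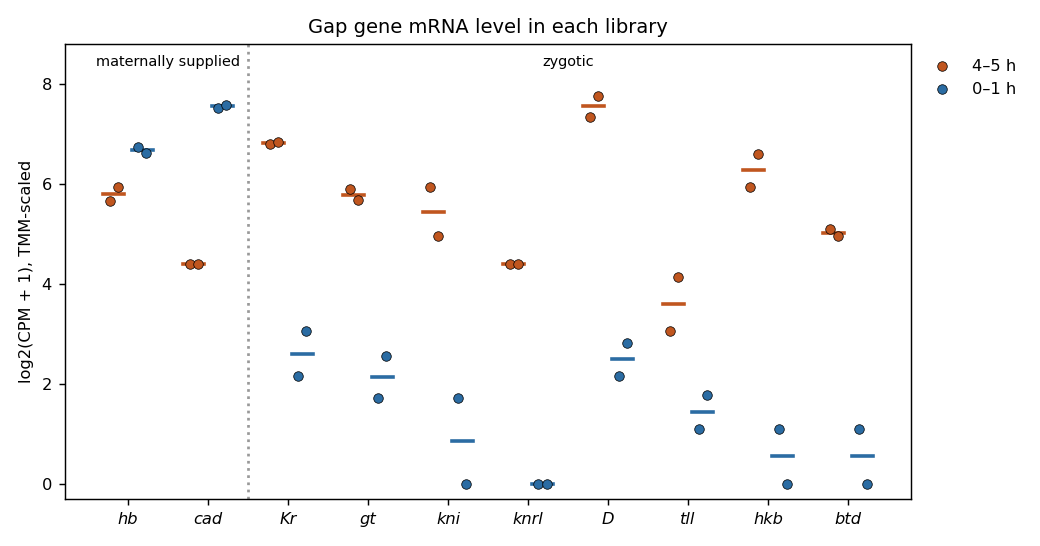
The level of each gap gene in each library, as log2(CPM + 1) on TMM-scaled library sizes, with 4–5 h points left of 0–1 h points and a bar at the mean of the 2 libraries. The maternally supplied hb and cad sit lower at 4–5 h, and each of the 8 zygotic genes sits higher, with no overlap between the stages.

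On the CPM scale both 4–5 h libraries lay below both 0–1 h libraries for the 2 maternally supplied genes, and above both for the 8 zygotic ones. Among all tested genes 42.1% lay wholly below and 37.7% wholly above in this way. Of the 10 genes 8 passed the count filter and were tested, and knrl and tll did not. The zygotic genes that passed did so through their reads at 4–5 h alone, so a rise was nearly set by being tested and their number carries no weight as evidence. Likewise cad passed through its reads at 0–1 h alone, so its fall was nearly set by being tested. Only hb had enough reads at both stages. The 6 tested zygotic genes were called higher, where 28.6% of all tested genes were, and hb and cad were called lower, where 31.5% were, 60.1% in all. DESeq2 called 6 gap genes higher and 1 lower, where it called 21.5% of genes higher and 18.6% lower, 40.1% in all. Over all genes 1730 were called higher and 1903 lower, against 656 and 3823 with library size only, where the counts of gap genes called were the same.

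Of the maternal pair, cad encodes a homeodomain activator of the posterior. Its mRNA is maternally supplied throughout the egg, and Bicoid represses its translation in the anterior. It had 11 and 6 reads at 4–5 h, against 158 and 157 at 0–1 h. In CPM that is 20.1 ± 0.143 at 4–5 h and 187 ± 7.03 at 0–1 h (mean ± SD, n = 2 each). It fell 9.19-fold, by 3.20 on the log2 scale (SE 0.34, edgeR adjusted p = 1.2e-13). Replicates were close at both stages, and the stages were far apart.

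The mRNA of hb encodes a zinc finger factor of the anterior, and maternal hb translation is repressed in the posterior by Nanos with Pumilio and Brat. It had 27 and 18 reads at 4–5 h, or 49.6 and 59.97 CPM, against 92 and 80 reads at 0–1 h, or 105.7 and 97.6 CPM. Both later libraries were lower than both early ones. It fell 1.89-fold, by 0.92 on the log2 scale (SE 0.31, edgeR adjusted p = 0.0072), against a median of −0.10 over all tested genes. The call for hb is fragile: it was lost with DESeq2 (log2 change −0.87, adjusted p = 0.127), without 0–1 h replicate 1 (−0.89, edgeR adjusted p = 0.0745) and without 4–5 h replicate 1 (−0.76, edgeR adjusted p = 0.0885). In deposited TPM, which divide by transcript length and are not TMM-scaled, hb stood at 3.63 and 4.84 at 4–5 h against 33.4 and 28.2 at 0–1 h. With library size only its log2 change was −2.11, but the median of all tested genes was then −1.29. Relative to that median it was −0.82, the same value as with TMM.

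Among the trunk gap genes, Kr encodes a zinc finger repressor of the central domain. It had 60 and 34 reads at 4–5 h, against 3 and 6 at 0–1 h. The 4–5 h libraries differed little after scaling, at 110.1 and 113 CPM, and the 0–1 h libraries were at 3.45 and 7.32 CPM. Its log2 change was 4.34 (SE 0.44, edgeR adjusted p = 1.2e-14), a 20.2-fold rise. Kr lies within the span of CG9380, which runs on the opposite strand. That gene had 5 and 1 reads at 4–5 h against 2 and 5 at 0–1 h, and whether the authors' counting used strand is not given in the sources used here.

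A bZIP repressor of an anterior and a posterior domain is encoded by gt. It had 32 and 15 reads at 4–5 h and 2 and 4 reads at 0–1 h. That is 54.4 ± 6.2 CPM at 4–5 h against 3.59 ± 1.83 CPM at 0–1 h (SD, n = 2 each). The log2 change of 3.88 (SE 0.55, edgeR adjusted p = 2.1e-09) was a 14.8-fold rise.

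Posterior abdominal patterning needs kni, which encodes a DNA-binding protein of the nuclear receptor class. It had 33 and 9 reads at 4–5 h, against 2 and 0 at 0–1 h. The 4–5 h libraries differed more for kni than for Kr or gt, at 60.6 and 29.98 CPM. Only 2 reads were seen at 0–1 h, so the change is given as a ratio of summed reads per summed TMM-scaled library size. It was 42.0, with a 95% counting interval of 10.9–358 (edgeR adjusted p = 5.0e-10).

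Its paralogue and neighbour knrl encodes a protein that can stand in for Kni. The genes lie on the same strand of chromosome 3L with 71670 bp between them. knrl had 11 and 6 reads at 4–5 h and none in either 0–1 h library. At 20.2 and 20.0 CPM at 4–5 h it was at least 5.65-fold higher than the floor of 3 counts per library at 0–1 h. It missed the count filter. With no filter its edgeR adjusted p was 4.5e-06. kni had more reads than knrl in both 4–5 h libraries. Per length, kni stood at 7.40 and 4.50 TPM and knrl at 1.25 and 1.36 TPM at 4–5 h. The summed read numbers of both genes were whole in every library. Whether reads from stretches that the paralogues share went to the wrong gene was not tested.

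The SoxB factor gene D, which affects segmentation along the trunk and later acts in the nervous system, had the most reads of the zygotic genes. It had 88 and 65 reads at 4–5 h, against 3 and 5 at 0–1 h. In CPM these are 161.5 and 217 at 4–5 h and 3.45 and 6.10 at 0–1 h. Its log2 change was 5.24 (SE 0.40, edgeR adjusted p = 2.2e-20), a 37.7-fold rise.

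Of the terminal gap genes, which respond to Torso signalling at the poles, hkb encodes an Sp/KLF-like zinc finger repressor. It had 33 and 29 reads at 4–5 h against 1 and 0 at 0–1 h. The later libraries were at 60.6 and 96.6 CPM. The ratio of summed reads per summed TMM-scaled library size was 124, with a wide 95% counting interval of 21.4–4976 (edgeR adjusted p = 3.5e-14).

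The other terminal gene, tll, encodes a nuclear receptor that later patterns the brain. It was close to the detection limit at both stages. It had 4 and 5 reads at 4–5 h against 1 and 2 at 0–1 h. On TMM-scaled library sizes that is a ratio of 6.0 (95% counting interval 1.5–34.5). The values were 7.34 and 16.7 CPM at 4–5 h and 1.15 and 2.44 CPM at 0–1 h, so the stages did not overlap in CPM. In deposited TPM they overlapped, at 0.968 and 2.42 at 4–5 h against 0.652 and 1.23 at 0–1 h. tll was not tested in the filtered fit, and with no filter it did not pass (log2 change 2.42, SE 1.09, edgeR adjusted p = 0.0539).

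The head gap gene btd encodes an Sp-family zinc finger factor needed for several head segments. It had 18 and 9 reads at 4–5 h, against 1 and 0 at 0–1 h. The 4–5 h libraries were at 33.0 and 29.98 CPM. The ratio was 54.0 with a 95% counting interval of 8.90–2211 (edgeR adjusted p = 1.3e-09).

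**Figure D2:**
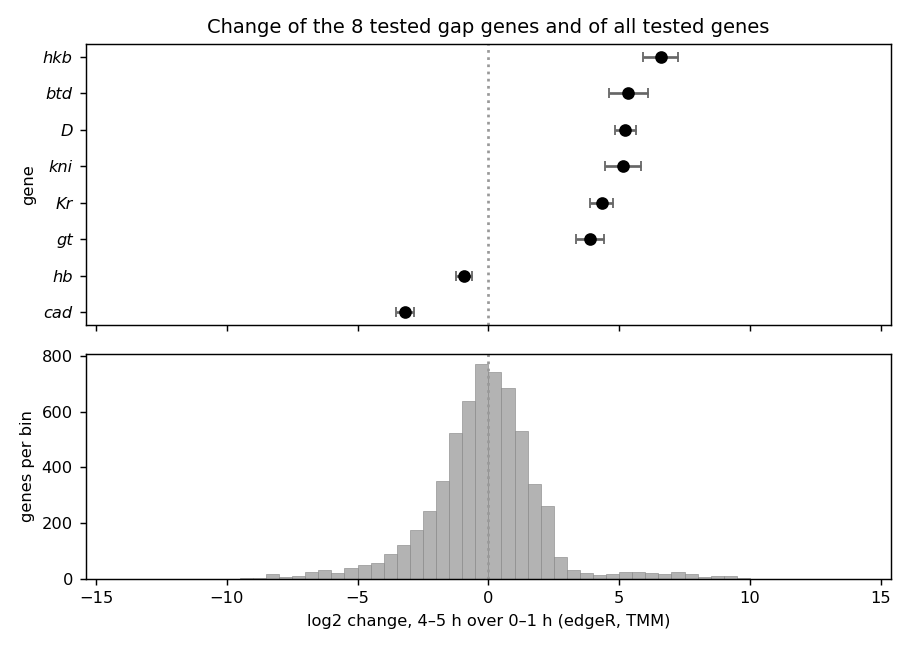
Upper panel, the log2 change (4–5 h over 0–1 h) of the 8 tested gap genes with its standard error, n = 2 libraries per stage. Lower panel, the number of tested genes in bins of the same axis. The 6 zygotic genes lie between 3.88 and 6.58, and hb lies at −0.92.

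For kni, hkb and btd the fold rests on 1 or 2 reads at 0–1 h, and its counting interval is correspondingly wide. All of these reads were in 0–1 h replicate 1. Without 0–1 h replicate 2, the fitted log2 changes were 4.23 for kni, 5.80 for hkb and 4.53 for btd, against 5.14, 6.58 and 5.35 with it, and all 3 stayed called. Without replicate 1 the early stage holds 0 reads, and the fitted change then depends on the prior count. The size of every tested zygotic rise also depends on the scaling. From gt, the lowest, to hkb, the highest, log2 changes ran from 3.88 to 6.58 with TMM. They ran from 2.71 to 5.52 with library size only and from 1.63 to 3.45 in limma on log2(TPM + 1). Relative to the median of all tested genes, these ranges were 3.98–6.68, 4.00–6.81 and 3.42–5.24.

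Levels of different genes were compared per length, in the deposited TPM averaged over the 2 libraries of a stage. At 4–5 h the order was D (26.9 ± 7.47, SD), hkb (14.3 ± 5.57), gt (8.41 ± 0.384), Kr (8.41 ± 0.282), kni (5.95 ± 2.05), hb (4.23 ± 0.855), btd (2.78 in both libraries), cad (2.27 ± 0.139), tll (1.69 ± 1.03) and knrl (1.30 ± 0.0802). Among neighbours in this order, the libraries of gt and Kr overlapped, as did those of kni and hb, of cad and tll, and of tll and knrl, so their order is not resolved. Among the 8286 genes with any TPM at 4–5 h, 85.6% lay below D and 31.8% below knrl. At 0–1 h the order began with cad (81.3 ± 4.12 TPM) and hb (30.8 ± 3.71 TPM). These exceeded 82.9% and 61.4% of 7234 detected genes. No zygotic member exceeded D at 2.57 ± 0.807 TPM, above 13.6% of them.

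Gene structure set knrl and cad apart from the rest. The positions that follow are from the Ensembl annotation of BDGP6.54. knrl (chromosome 3L 20597141–20620659, minus strand) spans 23519 bp with a longest intron of 15117 nt, longer than in 95.1% of 13754 coding genes. Its paralogue kni (3L 20692330–20695378, minus) spans 3049 bp with a longest intron of 734 nt. cad (2L 20770731–20783135, plus) has an intron of 9889 nt and hb (3R 8690980–8697822, minus) one of 3153 nt in its upstream form. The other zygotic genes have shorter introns. The longest are 373 nt in Kr (2R 25226611–25231394, plus), 75 nt in gt (X 2427113–2428967, minus) and 121 nt in tll (3R 30852315–30854400, plus). They are 65 nt in hkb (3R 4345015–4346646, minus), 76 nt in D (3L 14175610–14178620, minus) and 439 nt in btd (X 9694186–9697558, plus). The median longest intron was 131 nt over all coding genes and 226 nt over tested coding genes. By this measure gt, tll, hkb and D lie below the median of all coding genes, and Kr, kni and btd above it.

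**Figure D3:**
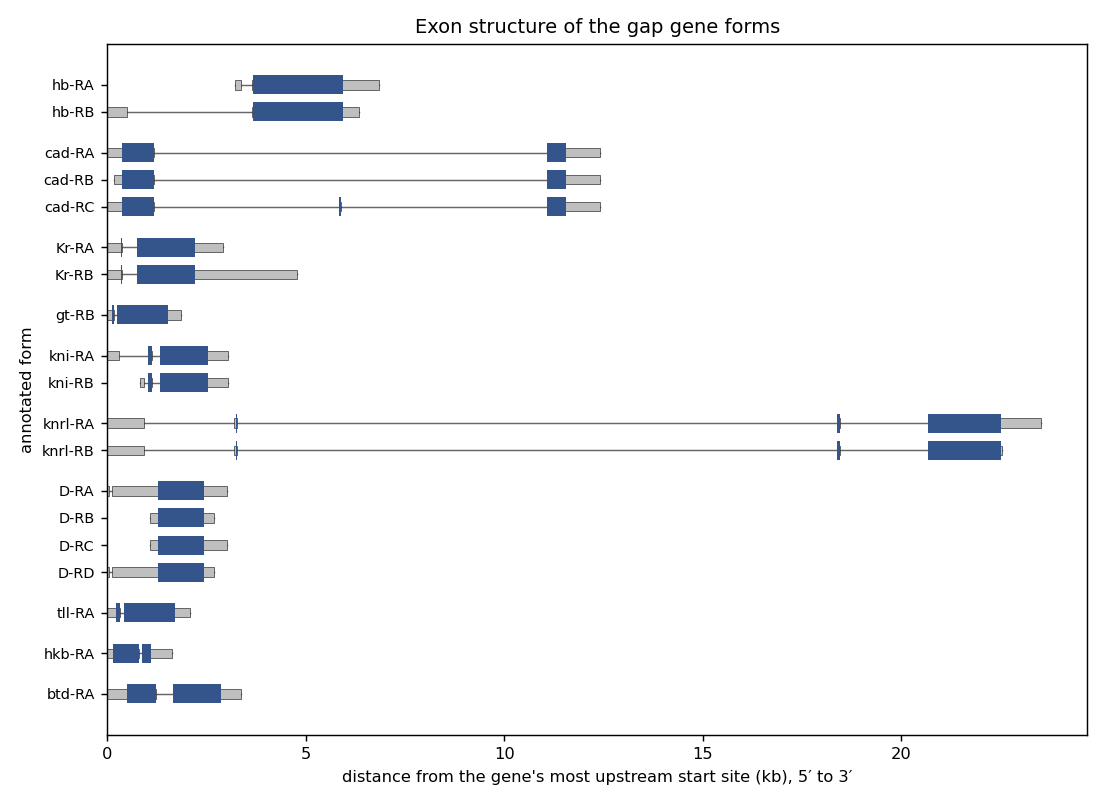
Exon structure of the 19 annotated forms of the gap genes, drawn 5′ to 3′ as distance in kb from the most upstream start site of the gene. Wide bars are coding exons, narrow bars are untranslated exon parts and lines are introns; knrl has the longest introns, with the largest at 15117 nt.

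Of the 19 annotated forms, 15 had reads. gt, tll, hkb and btd have 1 annotated form each, so nothing can be said of form choice there. Reads of direct RNA sequencing begin at the 3′ end, and a read that stops short of the 5′ end cannot tell start sites apart. For 9 of the 10 genes the summed read number was whole in every library within 0.01, so fractions arose from splitting reads between forms of the same gene. The exception was cad, with 158.313 and 156.953 at 0–1 h.

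An upstream promoter of hb is known to be active in the ovary, and a downstream promoter responds to Bicoid in the embryo. The annotated hb-RB starts 3222 nt upstream of hb-RA and ends 509 nt before it, with the same 2274 nt coding sequence in both. At 4–5 h all 27 and 18 hb reads were assigned to hb-RA, which allows a share of hb-RB of up to 11.1% and 16.7% (3 counts of the total, for counting error only). At 0–1 h hb-RA took 87.0 and 32.6 reads and hb-RB 5.00 and 47.4. The share of hb-RB was thus 5.43% (95% Wilson interval 2.34–12.1, on rounded reads) in 0–1 h replicate 1 and 59.2% (47.8–68.9) in replicate 2. The intervals of these replicates of the same stage did not overlap, and hb-RA was assigned most of the 0–1 h reads in 1 library and a minority in the other. A comparison of 2 libraries against 2 cannot reach an exact p below 0.333, and hb-RB missed the filter of the isoform test, so no stage difference in form is reported for hb.

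For kni the assignment was opposite in the 4–5 h libraries. All 33 reads of replicate 1 went to kni-RA (Wilson interval 89.6–100) and all 9 of replicate 2 to kni-RB (70.1–100). These forms share their 3′ end and differ in start sites 822 nt apart and in 15 nt of coding sequence. The 2 reads at 0–1 h were assigned to kni-RB.

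This disagreement was common. Among genes with at least 5 reads in both libraries of a stage and reads on at least 2 forms, the leading form differed between the replicates in 53.5% of 1755 genes at 4–5 h and in 45.1% of 2125 at 0–1 h. In 73.8% and 72.3% of those cases the leading forms had 3′ ends within 50 nt of each other. The kni forms are among these cases, and the hb forms, which end 509 nt apart, are not. The measure was chosen after the values of hb and kni were seen.

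For Kr, D and cad at both stages, and knrl at 4–5 h, the leading form was the same in both replicates. Kr-RB carries a 3′ untranslated region 1875 nt longer than that of Kr-RA. It took 54.7% (42.5–66.9) and 67.2% (50.8–80.9) of Kr reads at 4–5 h, with overlapping intervals, while Kr-RA took the rest. At 0–1 h Kr-RB had 0 of 3 and 1.88 of 6 reads. Kr was the only member with both forms past the filter of the isoform test and did not pass (edgeR diffSpliceDGE adjusted p = 0.428), where 108 of 823 genes did, 13.1%. Kr had 9 reads in all at 0–1 h behind this test.

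All 17 knrl reads at 4–5 h were assigned to knrl-RA, whose 3′ untranslated region is 984 nt longer than that of knrl-RB. For D, the intronless D-RC took 86.1 of 88 and 65 of 65 reads at 4–5 h and all 3 and 5 reads at 0–1 h. The remaining 1.91 reads were put on D-RA, which has the same 3′ end and an upstream start, and the 2 forms with the nearer 3′ end had none. For cad, cad-RB took all reads at 4–5 h, and 158 and 149 at 0–1 h. In 0–1 h replicate 2, cad-RA, which starts 163 nt upstream, was given 7.97 reads, 5.08% (Wilson interval 2.60–9.74). The form with an extra coding exon, cad-RC, had none in any library.

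**Figure D4:**
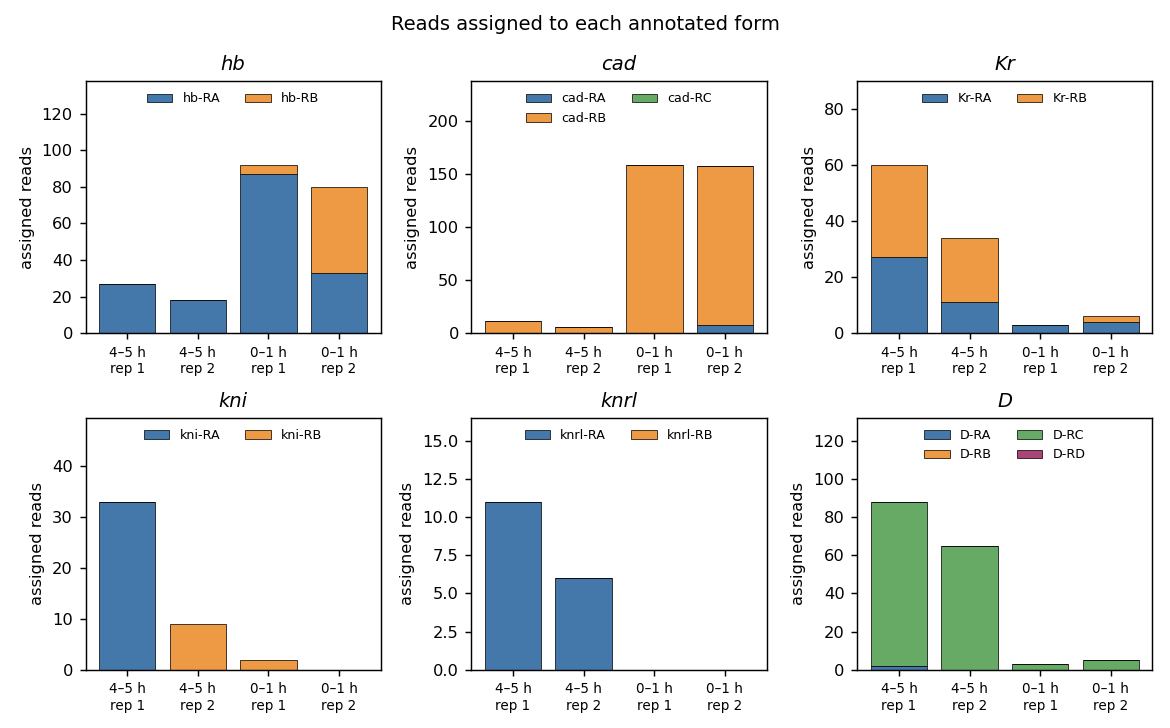
Reads assigned to each annotated form in each library (bars, stacked by form; linear axis of assigned reads) for the 6 members with more than 1 form. The split of hb differs between the 0–1 h replicates, kni switches form between the 4–5 h replicates, and Kr, knrl, cad and D look alike between replicates.

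Among 15 maternal regulators of the gap genes, 13 were tested, of which 3 were called higher and 3 lower, where 28.6% and 31.5% of all tested genes were, with a median log2 change of −0.46 against −0.10 over all tested genes. The morphogen gene bcd had 7 and 3 reads at 4–5 h against 20 and 20 at 0–1 h and was not called (log2 change −0.99, SE 0.53, edgeR adjusted p = 0.1). It was called lower with all libraries thinned to the smallest (−2.07, edgeR adjusted p = 0.0119), with library size only (−2.19, edgeR adjusted p = 4.1e-04) and in limma on log2(TPM + 1) (−2.42, adjusted p = 1.5e-05). Relative to the median of all tested genes, bcd was at −0.90 in the main fit and −1.98 when thinned. By the same measure it was at −0.89 with library size only and −0.63 on log2(TPM + 1). nanos, whose product represses maternal hb, fell 42.2-fold to 15.8 ± 3.56 CPM at 4–5 h, against 703 ± 54.8 CPM at 0–1 h. Its posterior anchor osk fell 55.1-fold, and pum, the partner of Nanos, fell by 0.70 on the log2 scale (SE 0.32, edgeR adjusted p = 0.0491). As with cad, nanos and osk passed the count filter through their reads at 0–1 h. The calls for pum and for brat, another partner (log2 change 0.70, SE 0.26), were each lost under several alternatives. With library size only brat was at −0.48, which is 0.81 above the median of all tested genes, and in TPM it was at −1.93, where that median was −1.80. The pioneer factor gene zld was higher, at 243 ± 32.7 CPM at 4–5 h against 73.2 ± 20.7 CPM at 0–1 h. On log2(TPM + 1) its change was −0.12, which is 1.68 above the median of all tested genes. CtBP, a corepressor used by Kr, Kni and Gt, had a log2 change of 1.96 (SE 0.23), and one of −0.07 on log2(TPM + 1), which is 1.73 above the median there.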

How the data were processed

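Per the labels' protocols, lysate of dechorionated embryos was cleared by centrifugation, RNA was extracted with TRI-reagent, and total RNA was sequenced because poly(A) tails change at this time. Per the submitters' processing notes, the authors used minimap2, Salmon and build BDGP6; their versions and settings are not stated there. The deposited expected counts are not normalised; the deposited TPM were scaled by the authors per effective length. Transcript lengths also stand in those tables. Of 30652 transcripts 30280 matched the Ensembl annotation of BDGP6.54, with 99.4% of matched lengths identical, and the other 372 kept their own identifiers.

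Here expected counts were summed per gene and rounded. Stage differences came from edgeR 4.0.16 under R 4.3.3 (filterByExpr with minimum count 10, TMM, robust quasi-likelihood F test, stage as the only term) and isoform usage with diffSpliceDGE. Alternatives used DESeq2 1.42.0 and limma 3.58.1 on log2(TPM + 1), and the closing section gives their effect. Both edgeR tests were run on simulated data with known changes. In the gene simulation few genes changed, in equal numbers up and down, so it does not test the TMM scaling of these data. Where a stage had 0 reads, its floor was set at 3 counts per library: 5.51 and 9.99 CPM at 4–5 h and 3.45 and 3.66 CPM at 0–1 h. Ratios with 1 to 3 reads at 0–1 h use TMM-scaled library sizes and have exact conditional binomial intervals, which cover counting error only. TPM give no depth of their own.

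The members, gene lists and tests were chosen with earlier results of these data known. From each other list, up to 3 called genes per direction are named by largest change, given 20 or more reads on average at the higher stage, with bcd, nanos and zld in any case. No genome sequence was used.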

Additional observations from a re-analysis of the deposited data

How the results depend on the processing

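The direction of every tested gap gene was the same under all alternatives that gave it a value, 10 to 13 per gene, and cad, Kr, gt, kni, hkb, D and btd stayed called in each. At 4–5 h 6 gap genes were called higher and 2 lower; with a minimum count of 30 only 4 were tested and 2 were called higher, and DESeq2 called 1 lower. Leaving out 1 library gave 4 to 6 higher and 1 to 2 lower; without 4–5 h replicate 1, as with all libraries thinned to the smallest, kni and btd missed the filter. Over all genes, 1730 higher and 1903 lower became 656 and 3823 with library size only and 312 and 4798 with limma on TPM, and DESeq2 called 1124 lower. Of the maternal regulators (3 higher, 3 lower), library size only called 1 and 10 and limma on TPM 0 and 11, while 5 were lower with no filter. Called higher were 1 pair-rule gene with a minimum count of 30 and 7 head gap and gap-like genes with no filter. The log2 change of brat was −0.48 with library size only and −1.93 in TPM, of CtBP −0.069 and of zld −0.12 in TPM; the medians of all tested genes were then −1.29 and −1.80, so that brat was at 0.81 and −0.13 relative to them, CtBP 1.73 above and zld 1.68 above. Beyond the scaling, the cause of these shifts was not tested.

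With the replicate block, 6 gap genes were called higher and 2 lower, as without it, and of the genes named brat and pum lost their call (adjusted p = 0.0511 and 0.105, edgeR). The deviations of same-numbered libraries correlated at −0.147 across 6042 genes. This gave no sign of pairing, but with 2 libraries per stage it cannot settle whether the numbers pair the samples. The crossed pairing, added after seeing the data, called 6 gap genes higher and 2 lower. Isoform usage was called for 108 genes by edgeR; for 0 with the replicate block (92 at unadjusted p under 0.05), 0 with the crossed block (200), 0 with start sites summed (68) and 0 to 1 with 1 library left out (196 to 362). For hb and cad the isoform test gave no main value, as only 1 form of each passed the filter. hb was testable only without 0–1 h replicate 1 or without 1 of the 4–5 h libraries, and did not pass. Each of these fits leaves 1 library in a stage, so this says little about hb. tll and knrl had too few reads for the filter, and the form shares of hb and kni differed between replicates of a stage.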

Other observations

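Pair-rule genes, which read the gap domains as stripes, had 6 of 10 members tested, of which 5 were called higher and 1 lower, where 28.6% and 31.5% of all tested genes were, with a median log2 change of 3.48 against −0.10. As with the gap genes, members low at 0–1 h passed the count filter through their reads at 4–5 h, and ftz-f1 through its reads at 0–1 h. The forkhead-domain genes slp1 and slp2 had 64 and 42, and 26 and 28 reads at 4–5 h, against 0 and 2, and 0 and 0 at 0–1 h. The ratio for slp1 was 106.0 (95% counting interval 28.6–887), and slp2 was at least 19.8-fold higher. ftz-f1, a maternally supplied nuclear receptor gene, fell 5.41-fold, to 15.1 ± 7.21 CPM at 4–5 h against 89.4 ± 24.7 CPM at 0–1 h (SD, n = 2 each; log2 change −2.44, SE 0.39). Without 4–5 h replicate 1 its log2 change was −3.14. The stripe genes eve, ftz and prd had at most 2 reads in either 4–5 h library. Others of the list went the other way and were called higher. At 4–5 h run had 19 and 17 reads, odd 22 and 15, and hry 18.8 and 9. At 0–1 h they had 2 and 3, 4 and 4, and 3 and 4.

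Of 10 other head gap and gap-like genes 4 were tested, with 3 called higher and 1 lower, beside the same 28.6% and 31.5%, and a median log2 change of 6.05 against −0.10. The 3 higher ones passed the count filter through their reads at 4–5 h, and cnc through its reads at 0–1 h. The POU genes nub and pdm2, which act after Kr in the neuroblast series, had 52 and 28, and 105 and 59 reads at 4–5 h, against 1 and 0 each at 0–1 h. Their ratios were 160.0 (95% counting interval 27.9–6398) for nub and 328 (58.1–13033) for pdm2. The head gap gene ems had 20 and 21 reads at 4–5 h against 2 and 0 at 0–1 h (ratio 41.0, interval 10.6–350), and oc, the Drosophila orthodenticle gene, had 10 and 7 against 0 and 0. cnc, which has maternal mRNA in these libraries, fell 3.63-fold, with 22 and 7 reads at 4–5 h against 128 and 81 at 0–1 h. eve, ftz, prd, run, odd, hry, oc, eg and Sp1 were named after their values were seen. eg, a paralogue of kni and knrl, had 0 reads in all 4 libraries, and Sp1, a paralogue of btd, had 1 read in all.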
